A study of Mus musculus with 60 samples.

Results

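The genes of cholesterol synthesis and its control examined here are Hmgcs1, Sqle, Insig1, Idi1, Fdft1, Dhcr7, Cyp46a1 and Srebf2, taken by gene symbol, which makes 8 of the 47574 entries used in each table. They were measured by RNA-Seq in 60 brain libraries, and their levels are given as FPKM (fragments per kilobase of transcript, scaled to the size of the library) divided by a size factor of the library. By their labels, the libraries came from the cortex or striatum of C57BL/6N mice at 3 months, and each of 10 groups held 6, from 3 males and 3 females. In the Δ12 line, CRISPR/Cas9 editing of embryonic stem cells deleted a stretch of Htt exon 12 and left a new splice donor, and libraries came from +/+, Δ12/+ and Δ12/Δ12 mice. The KO line descends from 1 founder in which an imprecise deletion removed the normal splice donor, and its libraries came from +/+ and KO/+ mice. The edited alleles are present in the whole animal, so no cell type is singled out by the design. Neurons, glia and vessels were sequenced together as bulk tissue, in which fewer cells of a type and less RNA per cell cannot be told apart.

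Neural cells make nearly all of the cholesterol of the brain themselves, since lipoproteins of the blood do not cross the blood-brain barrier, and glia supply neurons through ApoE particles. Synthesis runs from acetyl-CoA through mevalonate, isoprenoids and squalene to the sterols, and it is switched on when SREBP2, the product of Srebf2, is released from the endoplasmic reticulum and activates the genes of the pathway. INSIG proteins hold SREBP2 back when sterols are plentiful, and neurons remove cholesterol by turning it into 24S-hydroxycholesterol with the enzyme that Cyp46a1 encodes.

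The labels were checked against the libraries before any comparison. Deposited FPKM of Slc17a7, which encodes the vesicular glutamate transporter of cortical projection neurons, lay at 121 to 234 in 30 libraries, called cortex-like here, and at 4.81 to 64.8 in the other 30, called striatum-like. The cortex-like libraries were all those labelled Δ12-line +/+ and Δ12/+ and the male Δ12/Δ12 libraries, and the striatum-like ones were the female Δ12/Δ12 and all KO-line libraries, under either tissue label. The labelled tissue therefore matched the Slc17a7 class in 30 of 60 libraries, and the labelled sex matched the sex-linked transcripts in 30 of 60. Htt was at 11.6 to 12.6 deposited FPKM in 6 of the 12 libraries labelled KO/+ and at 15.1 to 17.3 in the other 6, beside 15.4 to 18.1 in the 12 KO-line +/+ libraries. In the Δ12 line it was at 6.39 to 13.8 in cortex-like and 14.3 to 16.6 in striatum-like libraries, and a gene-level value cannot show a short deletion within an exon. The labels of 1 library, striatum KO/+ female 3, contradict each other on the line (Δ12 in the title), and its genotype label was followed, which gives KO/+. Libraries are named by their labels throughout, and every direction given is that of the labels. The estimated depth was 12700000 to 27500000 fragments, with a median of 14400000 in cortex-like and 18200000 in striatum-like libraries.

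Promoter sequences of 3 members are shown because these genes lie at the control point of the pathway or carry the motifs searched. The RefSeq table for GRCm38.p6 held entries for 6 of the 8 members, in 8 windows of 250 bases before a transcription start, and none for Sqle and Fdft1. The letters TCACNCCA, a form of the sterol regulatory element that SREBPs bind, and CCAAT, the box bound by NF-Y, were searched on both strands, and no match of one overlapped a match of the other. TCACNCCA was chosen after the sequences had been read, and it was found in 2 of the 8 windows, those of Hmgcs1 and Srebf2, against 3.7% of all 32851 windows of this length. CCAAT was found in 6 of the 8 windows, against 33.8% of all windows. Capitals mark both motifs, CCAAT reading as ATTGG on the strand shown, and all 3 windows lie on the forward strand. Hmgcs1 is shown at chr13:119690101-119690350, Insig1 at chr5:28071162-28071411 and Srebf2 at chr15:82147019-82147268.
Hmgcs1: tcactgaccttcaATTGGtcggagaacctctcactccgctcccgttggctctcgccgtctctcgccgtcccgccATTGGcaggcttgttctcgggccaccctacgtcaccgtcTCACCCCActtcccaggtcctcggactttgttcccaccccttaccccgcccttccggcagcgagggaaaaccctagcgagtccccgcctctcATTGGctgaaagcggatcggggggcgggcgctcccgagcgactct
Insig1: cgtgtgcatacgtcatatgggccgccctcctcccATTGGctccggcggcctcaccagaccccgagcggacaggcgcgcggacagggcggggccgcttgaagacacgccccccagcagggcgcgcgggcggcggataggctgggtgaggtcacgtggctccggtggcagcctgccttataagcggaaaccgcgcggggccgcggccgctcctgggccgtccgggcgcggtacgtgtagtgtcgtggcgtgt
Srebf2: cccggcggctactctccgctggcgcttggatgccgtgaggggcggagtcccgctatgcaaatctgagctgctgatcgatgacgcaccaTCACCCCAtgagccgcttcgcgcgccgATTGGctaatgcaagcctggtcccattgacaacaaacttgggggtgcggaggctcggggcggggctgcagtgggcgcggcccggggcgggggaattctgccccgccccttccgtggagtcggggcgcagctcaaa
The Hmgcs1 window holds 1 match of TCACNCCA and 3 of CCAAT, the Srebf2 window 1 of each, and the Insig1 window 1 of CCAAT alone. A match is a description of these letters and not a bound site.

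On GRCm38, with coordinates as the tables give them, Hmgcs1 (ENSMUSG00000093930) lies at chromosome 13, 119690462 to 119708086, Idi1 (ENSMUSG00000058258) at chromosome 13, 8885501 to 8892451, and Insig1 (ENSMUSG00000045294) at chromosome 5, 28071363 to 28078662. Sqle (ENSMUSG00000022351) lies at chromosome 15, 59315077 to 59331192, and Srebf2 (ENSMUSG00000022463) at chromosome 15, 82147266 to 82205376. Dhcr7 (ENSMUSG00000058454) lies at chromosome 7, 143823145 to 143848410, and Cyp46a1 (ENSMUSG00000021259) at chromosome 12, 108334377 to 108362231, all of these on the forward strand. Fdft1 (ENSMUSG00000021273) lies at chromosome 14, 63145153 to 63177793, on the reverse strand. The deposited confidence interval of a value, which covers counting and assignment of fragments only, reached 4.6% to either side of the value for Srebf2 and 21.3% for Dhcr7 in the median library, and the other members lay between. In 1 library that of Dhcr7 reached 144.2%, so single Dhcr7 values are the least precise of the 8.

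The order of the levels differed between the Slc17a7 classes. In the 30 cortex-like libraries Hmgcs1 stood first with a median of 29.7 rescaled FPKM, followed by Cyp46a1 at 28.2, Insig1 at 22.7, Fdft1 at 14.4, Srebf2 at 13.5, Dhcr7 at 8.90, Sqle at 8.39 and Idi1 at 6.46. In the 30 striatum-like libraries Cyp46a1 stood first at 55.9, followed by Srebf2 at 28.9, Hmgcs1 at 26.2, Insig1 at 14.4, Fdft1 at 9.46, Dhcr7 at 7.93, Sqle at 7.78 and Idi1 at 4.50. FPKM are per length, so levels can be compared between genes. All neighbours of the cortex-like order overlapped in their ranges. In the striatum-like order the ranges did not overlap between Cyp46a1 and Srebf2, Hmgcs1 and Insig1, Insig1 and Fdft1, and Sqle and Idi1, and the other neighbours did overlap.

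Srebf2 and Cyp46a1 were the members with the higher level in striatum-like libraries, and with rescaled FPKM their classes did not overlap. Srebf2, the transcription factor gene, ranged from 10.5 over a median of 13.5 to 18.4 rescaled FPKM in cortex-like libraries and from 24.3 over 28.9 to 37.4 in striatum-like ones, a ratio of medians of 2.15. Cyp46a1, the cholesterol 24-hydroxylase of neurons, ranged from 18.1 over 28.2 to 38.3 and from 45.5 over 55.9 to 73.4, a ratio of 1.99. On this scale every striatum-like library stood above every cortex-like one for both genes, but with FPKM as deposited the classes overlapped, with 28 of 30 striatum-like libraries above all cortex-like ones for Srebf2 and 21 of 30 for Cyp46a1.

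Insig1, whose product retains SREBP2 in the endoplasmic reticulum, ran the opposite way. It ranged from 18.6 over 22.7 to 31.9 rescaled FPKM in cortex-like libraries and from 11.4 over 14.4 to 17.0 in striatum-like ones, a ratio of 0.64 without overlap, and the classes did not overlap with FPKM as deposited either.

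Among the enzymes of synthesis the ratio of medians lay between 0.66 and 0.93, and the classes overlapped for each of the 5. Fdft1, squalene synthase, ranged from 8.42 over 14.4 to 21.4 in cortex-like libraries and from 7.56 over 9.46 to 11.1 in striatum-like ones (ratio 0.66). Idi1, the isomerase of isopentenyl diphosphate, ranged from 4.00 over 6.46 to 7.83 and from 3.63 over 4.50 to 5.46 (ratio 0.70). These are the enzymes of the middle of the pathway, which makes isoprenoids and squalene, and they stood furthest from 1.

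Hmgcs1, the synthase of HMG-CoA at the head of the pathway, ranged from 22.1 over 29.7 to 41.5 and from 22.2 over 26.2 to 34.3 (ratio 0.88). Sqle, the epoxidase that turns squalene towards sterols, ranged from 6.41 over 8.39 to 10.0 and from 6.02 over 7.78 to 8.87 (ratio 0.93). Dhcr7, the reductase of the last step of one branch of the pathway, ranged from 6.00 over 8.90 to 16.6 and from 6.74 over 7.93 to 10.3 (ratio 0.89). For these 3 the ranges of the classes lay largely on top of each other.

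Markers of several cell types moved with the class. The summed level of 8 markers of striatal neurons ranged from 106 over 154 to 562 rescaled FPKM in cortex-like and from 1071 over 1459 to 2068 in striatum-like libraries. Of the 6 markers of cortical neurons, Slc17a7 defines the classes, and the other 5 did not run together. Neurod6 and Tbr1 had ratios of medians of 0.16 and 0.27, while Cux2 had 1.32 and Lmo3 2.22 (1.02 and 1.64 with FPKM as deposited), and the sum of all 5 ranged from 27.2 over 36.7 to 46.4 in cortex-like and from 42.1 over 56.2 to 65.4 in striatum-like libraries. The names of the classes therefore rest on part of the cortical markers. The sum of 6 oligodendrocyte markers ranged from 342 over 473 to 652 and from 784 over 999 to 1286, and that of 4 microglia markers from 18.2 over 27.6 to 35.1 and from 37.4 over 46.1 to 52.1. The sum of 6 astrocyte markers ranged from 555 over 650.0 to 1067 and from 621 over 721 to 818, so these ranges overlapped. No marker of these lists was at 0 in all libraries, and the part of cell composition and depth in the members' levels was not tested.

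**Figure D1:**
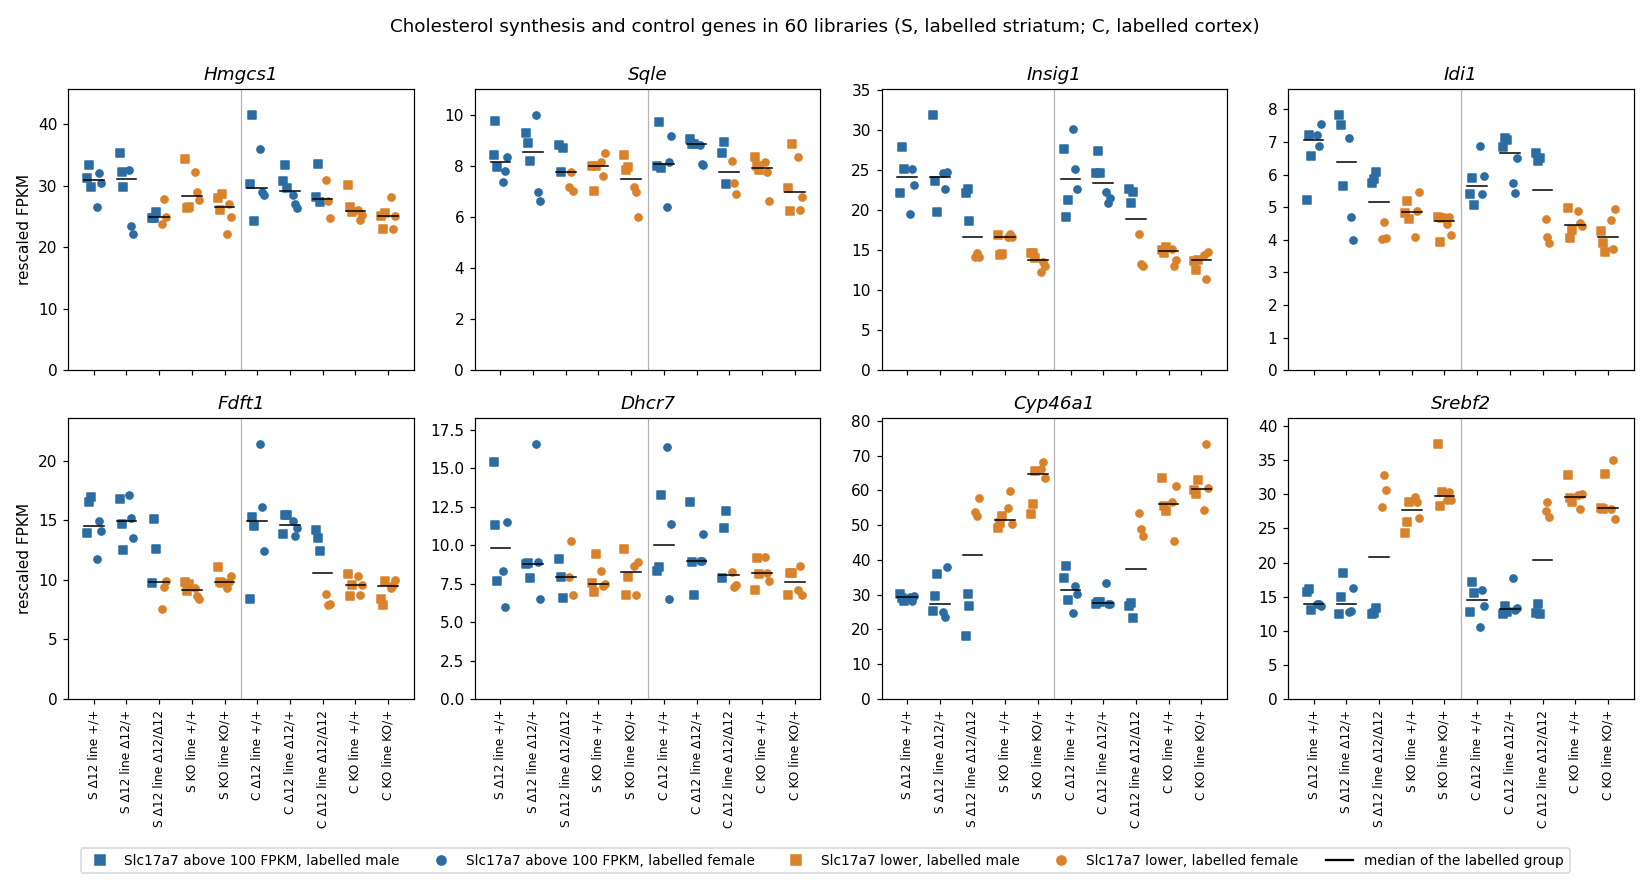
Rescaled FPKM of the 8 members in each of the 60 libraries, by labelled group (horizontal axis with squares for labelled males, circles for females), with cortex-like libraries in blue, striatum-like ones in orange and the group median as a bar. For Srebf2, Cyp46a1 and Insig1 the 30 cortex-like and 30 striatum-like libraries do not overlap on this scale (with FPKM as deposited only Insig1 keeps this), while for the other 5 members they do.

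The labels allow a test of these levels only where the labelled groups coincide with the classes, as between the +/+ mice of the 2 lines. There the line, and whatever separates the Slc17a7 classes, cannot be told apart. Of the 8 members, 5 differed between KO-line and Δ12-line +/+ libraries labelled striatum (limma with Benjamini-Hochberg adjustment over all 15712 entries tested), against 79.4% of all entries, so the share of members called was below that background. Of these, 2 were higher in the KO line, against 41.9% of all entries, and 3 were lower, against 37.4%.

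Srebf2 ranged from 24.3 over 27.7 to 29.6 rescaled FPKM in the 6 KO-line libraries and from 13.0 over 13.9 to 16.1 in the 6 Δ12-line ones. The log2 difference was 0.91 ± 0.08 (SE, adjusted p = 5.3e-07). Cyp46a1 ranged from 49.1 over 51.6 to 59.7 and from 28.1 over 29.2 to 30.3, a log2 difference of 0.85 ± 0.06 (SE, adjusted p = 1.1e-07). For both genes all 6 KO-line libraries stood above all 6 Δ12-line ones. Among the members that were lower, Fdft1 ranged from 8.42 over 9.18 to 9.79 and from 11.7 over 14.5 to 16.9, a log2 difference of -0.65 ± 0.08 (SE, adjusted p = 1.0e-05). Insig1 ranged from 14.4 over 16.6 to 17.0 and from 19.5 over 24.2 to 27.9, a log2 difference of -0.55 ± 0.09 (SE, adjusted p = 1.5e-04). Neither of these overlapped between the lines. Idi1, with 4.10 over 4.86 to 5.46 and 5.22 over 7.05 to 7.56, overlapped slightly and had a log2 difference of -0.44 ± 0.09 (SE, adjusted p = 0.0010).

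Hmgcs1, Sqle and Dhcr7 did not pass the test, with log2 differences of -0.06 (95% interval -0.25 to 0.13), -0.07 (-0.23 to 0.10) and -0.28 (-0.69 to 0.12). For Hmgcs1 the direction depended on the scaling, since quantile normalization gave 0.40 (adjusted p = 0.0022). With FPKM as deposited all 8 members passed, 2 higher and 6 lower, but the median of all entries then moved from 0.05 to -0.23 and the calls over all entries from 6588 higher and 5881 lower to 5000 and 7053. Relative to that median, the differences with deposited and with rescaled FPKM were 0.82 and 0.86 for Srebf2, 0.76 and 0.80 for Cyp46a1, -0.64 and -0.60 for Insig1 and -0.15 and -0.11 for Hmgcs1.

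Under the cortex label the same comparison of +/+ mice called 5 of 8 members, against 68.0% of all entries, 2 of them higher (36.5% of all entries) and 3 lower (31.6%). The members called were again Srebf2 (1.06 ± 0.12), Cyp46a1 (0.83 ± 0.12), Insig1 (-0.71 ± 0.12), Fdft1 (-0.55 ± 0.18) and Idi1 (-0.32 ± 0.09, all log2 ± SE), with adjusted p from 8.9e-06 to 0.017. Leaving out Δ12-line +/+ female 1, a library apart from the rest in several genes of synthesis, gave -0.44 for Fdft1 and 0.98 for Srebf2. For Idi1 the 6 KO-line libraries at 4.05 to 4.99 all stood below the Δ12-line ones at 5.06 to 6.89.

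Female and male Δ12/Δ12 libraries also coincided with the classes, the females being striatum-like and the males cortex-like, and here too labelled sex and class cannot be told apart. Libraries of both tissue labels were pooled in this fit, with labelled tissue as a covariate. The labels do not show whether they share mice, and SE and p-values treat each library as independent. Of the 8 members 5 differed, against 77.4% of all entries, 2 of them higher in females (41.0% of all entries) and 3 lower (36.4%). Srebf2 ranged from 26.7 over 28.5 to 32.8 in the 6 female libraries and from 12.4 over 12.6 to 13.9 in the 6 male ones, a log2 difference of 1.14 ± 0.06 (SE, adjusted p = 1.7e-08). Cyp46a1 ranged from 46.9 over 53.1 to 57.8 and from 18.1 over 26.8 to 30.3, a log2 difference of 1.04 ± 0.12 (SE, adjusted p = 7.1e-06). Both genes separated the libraries of this 1 genotype completely.

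Insig1 was at 13.0 to 17.0 in females and 18.6 to 22.6 in males, a log2 difference of -0.57 ± 0.08 (SE, adjusted p = 4.2e-05). Idi1 was at 3.90 to 4.63 and 5.73 to 6.66, a log2 difference of -0.51 ± 0.06 (SE, adjusted p = 1.3e-05), and these groups did not overlap either. Fdft1 overlapped slightly, with a log2 difference of -0.56 ± 0.11 (SE, adjusted p = 6.5e-04). Sqle had a log2 difference of -0.16 ± 0.07 (SE, adjusted p = 0.056), and Hmgcs1 and Dhcr7 had -0.04 and -0.17. Quantile normalization turned Hmgcs1 to 0.33 (adjusted p = 0.0029), and FPKM as deposited, with a median of all entries of -0.30 in place of 0.07, called all 8 members.

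**Figure D2:**
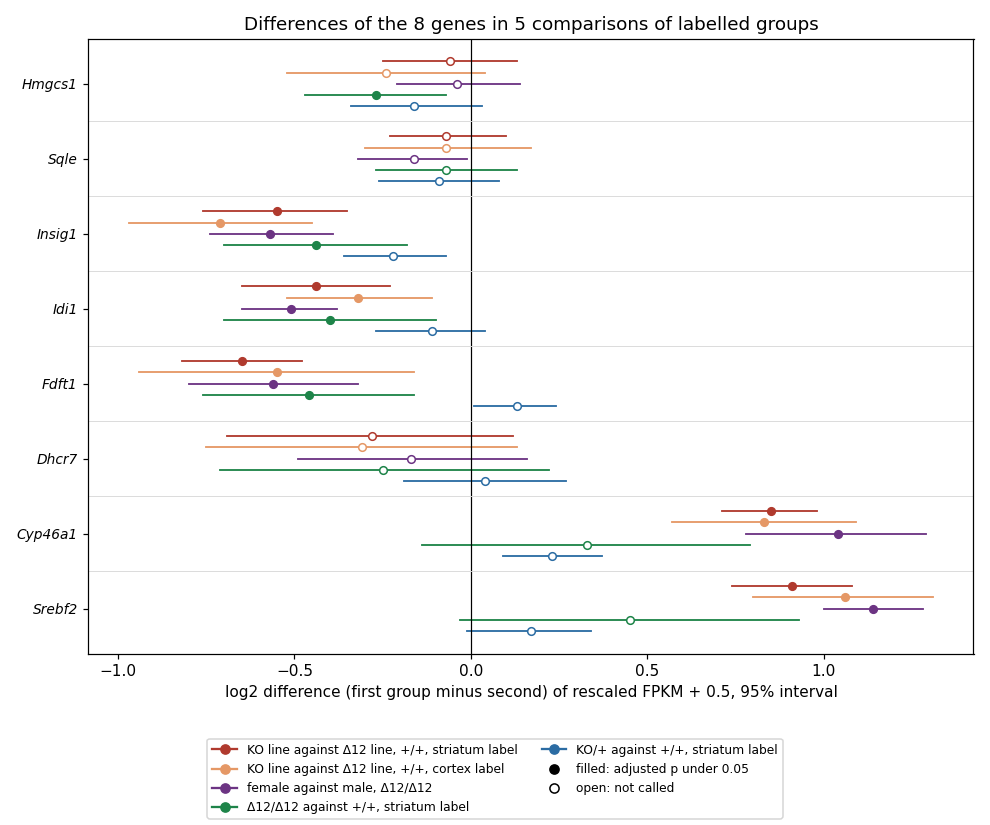
Log2 differences of the 8 members with 95% intervals in 5 comparisons of labelled groups, fitted with limma on log2(rescaled FPKM + 0.5), where filled points passed an adjusted p under 0.05. Srebf2 and Cyp46a1 lie above 0 and Insig1, Idi1 and Fdft1 below 0 in the 3 comparisons that coincide with the Slc17a7 classes.

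Other genes of the pathway were followed in 3 lists. Between +/+ mice of the lines labelled striatum, 13 of 15 further genes of synthesis passed the test, against 79.4% of all entries, 3 higher (41.9% of all entries) and 10 lower (37.4%) in the KO line, with a median log2 difference of -0.67 beside 0.05 over all entries. Among those with the smallest adjusted p were Cyp51 (-1.25) and Tm7sf2 (-2.03), which act on the first sterols, and Mvk (-1.06), mevalonate kinase. Their adjusted p ranged from 2.4e-07 to 3.8e-06.

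Of 11 genes of control and uptake, 7 were higher and 2 lower, with a median of 0.44, and these 9 calls were again near the share of 79.4% over all entries. Mbtps1, a protease that releases SREBPs, had a log2 difference of 1.28, and Srebf1, the sister gene of Srebf2, one of 1.62. Insig2, the paralogue of Insig1, had -1.19. Insig1 and Insig2 therefore both stood lower in the KO line while Srebf1 and Srebf2 both stood higher.

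Of 9 genes of transport and turnover, 5 were higher and 1 lower, against the same share, with a median of 0.81. They were led by Lrp1 (1.52), a receptor for ApoE particles, Cyp27a1 (1.58), the sterol 27-hydroxylase, Abca1 (1.52) and Abcg1 (0.81), exporters of cholesterol. With FPKM as deposited the lists had 1 higher and 10 lower, 3 and 3, and 5 and 3, Hsd17b7 and Scap being the called genes that changed sign. Abca1 and Lrp1, with 6 KO-line libraries at 8.08 to 10.1 and 43.8 to 53.7, lay well above the Δ12-line libraries at 2.13 to 4.06 and 14.6 to 21.5.

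Under the cortex label the lists had 1 higher and 9 lower, 5 and 1, and 5 and 1, against 36.5% of all entries higher and 31.6% lower. Between female and male Δ12/Δ12 libraries they had 3 and 9, 7 and 2, and 5 and 1, against 41.0% and 36.4% of all entries, and 0 and 10, 5 and 4, and 4 and 3 with FPKM as deposited. Mvd was not analysed here, and Ch25h did not reach the filter on low values in these comparisons.

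**Figure D3:**
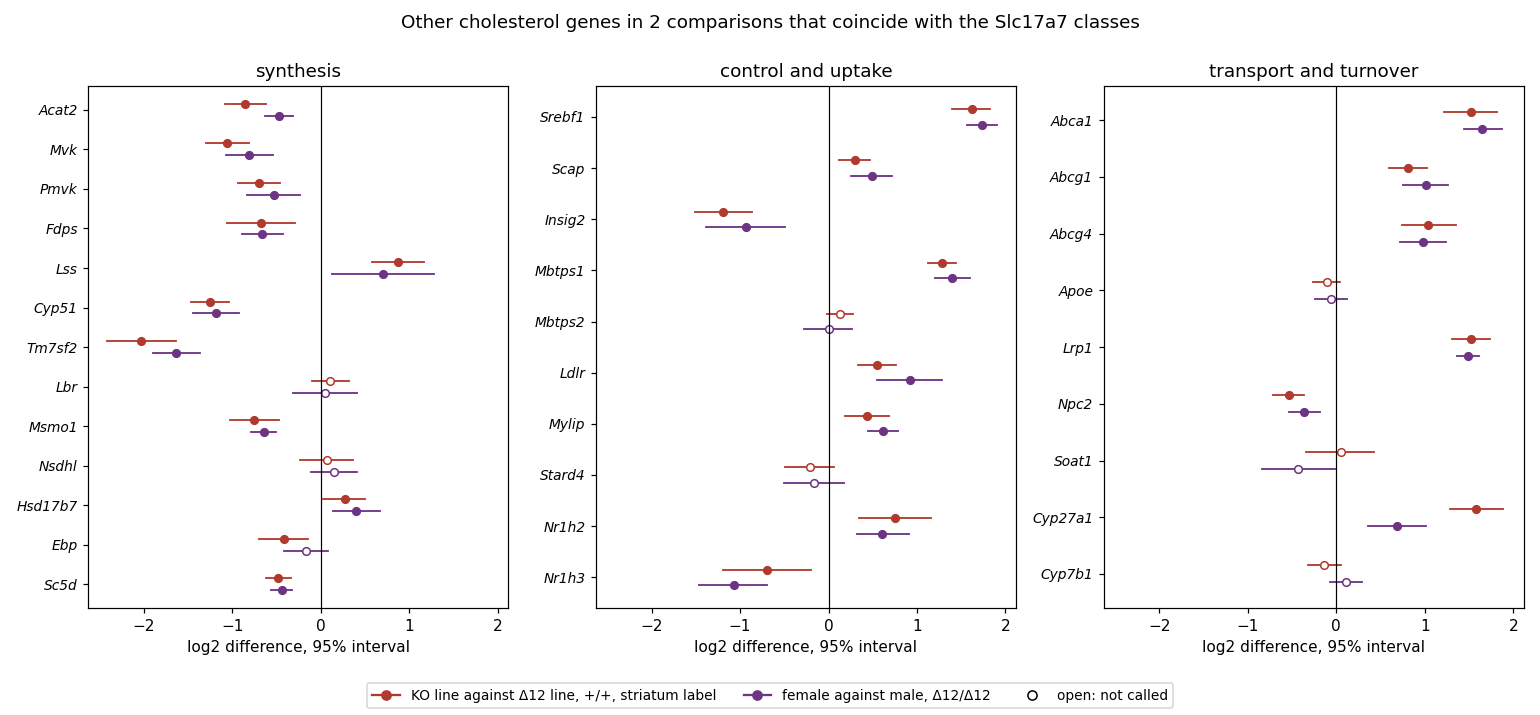
Log2 differences with 95% intervals of further pathway genes, by list, between KO-line and Δ12-line +/+ libraries labelled striatum (red) and between female and male Δ12/Δ12 libraries (purple), with open points for genes that did not pass. With rescaled FPKM, Tm7sf2 (-2.03) and Cyp51 (-1.25) lie farthest below 0 among the genes of synthesis shown in the line comparison, and Srebf1 (1.62) and Cyp27a1 (1.58) farthest above 0 in the other lists.

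Whether the Δ12 allele changed these genes was asked within the Δ12 line. Under the striatum label 4 of 8 members were lower in Δ12/Δ12 than in +/+ libraries, against 13.6% of all entries called lower and 28.3% called in either direction. The Δ12/Δ12 group held 3 cortex-like male and 3 striatum-like female libraries, while all +/+ libraries were cortex-like. Insig1 ranged from 14.1 over 16.6 to 22.6 and from 19.5 over 24.2 to 27.9 in +/+, a log2 difference of -0.44 ± 0.12 (SE, adjusted p = 0.034). Fdft1 ranged from 7.56 over 9.80 to 15.1 and from 11.7 over 14.5 to 16.9, a log2 difference of -0.46 ± 0.13 (SE, adjusted p = 0.038). Both groups overlapped for each of these genes.

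Idi1, at 4.03 to 6.07 in Δ12/Δ12 and 5.22 to 7.56 in +/+, had a log2 difference of -0.40 ± 0.14 (SE, adjusted p = 0.048) and Hmgcs1 one of -0.27 ± 0.09 (SE, adjusted p = 0.049), with Hmgcs1 at 23.8 to 27.8 in Δ12/Δ12 and 26.6 to 33.3 in +/+. Under quantile normalization Hmgcs1 was at -0.05 (adjusted p = 0.72). The calls ended, with 0 of 8 members left, when the Slc17a7 class was a covariate, with the replicate number as a block, without the sex covariate, without any 1 of the 6 females and when only the labelled males were compared, all of them cortex-like. Nearly all calls over all entries ended too. From 2278 higher and 2103 lower they fell to 9 and 12 with the class, 1 and 4 with the block, 5 and 4 without sex and 2 and 0 in labelled males. In those males the log2 differences were -0.32 for Hmgcs1, -0.24 for Insig1, -0.09 for Idi1 and -0.35 for Fdft1, with adjusted p from 0.53 to 0.86. The fit with the class covariate gave the same differences, since genotype and class coincide within the females, so it is no separate check. Of the genes of synthesis, 7 of 15 were lower, against 13.6% of all entries, with Acat2 (-0.63), Mvk (-0.71), Pmvk (-0.67) and Cyp51 (-0.87) having the smallest adjusted p, none of 11 genes of control and uptake passed, and in transport and turnover Cyp27a1 (0.69) and Lrp1 (0.91) were higher, against 14.7% of all entries. Slc17a7 itself was lower in this comparison (-1.52, adjusted p = 0.039), and of 8 markers of striatal neurons 4 were higher, and their part in the members' differences was not tested.

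Under the cortex label limma called 0 of 8 members between Δ12/Δ12 and +/+, against 0.924% of all entries. An unadjusted p under 0.05 was reached by 1 member, Insig1 (log2 difference -0.43, 95% interval -0.84 to -0.02), and by 5978 of all 15696 entries, a larger share. Between Δ12/+ and +/+ it called 0 of 8 members under either label, against 0.00663% of all entries for striatum and 0.0662% for cortex. There 0 members had an unadjusted p under 0.05, against 486 of 15077 entries for striatum and 1263 of 15095 for cortex. All libraries of these Δ12/+ comparisons were cortex-like. The log2 differences under the striatum label lay between -0.16 for Idi1 and 0.04 for Insig1, with 95% intervals of -0.52 to 0.20 and -0.23 to 0.30.

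In the KO line all libraries were striatum-like. Under the striatum label limma called 0 of 8 members between KO/+ and +/+, against 6.91% of all entries. Against 3449 of all 15808 entries, 3 members had an unadjusted p under 0.05. Of these, Cyp46a1 ranged from 53.3 over 64.6 to 68.1 in KO/+ and from 49.1 over 51.6 to 59.7 in +/+, a log2 difference of 0.23 ± 0.06 (SE, adjusted p = 0.054). Insig1 ranged from 12.3 over 13.8 to 14.7 and from 14.4 over 16.6 to 17.0, a log2 difference of -0.22 ± 0.07 (SE, adjusted p = 0.076). Both pairs of groups overlapped. Fdft1 had a log2 difference of 0.13 ± 0.05 (SE, adjusted p = 0.19). Without KO/+ male 1, Cyp46a1 passed with 0.26 (adjusted p = 0.039).

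The same libraries differed in their glial and neuronal markers. Of 6 oligodendrocyte markers 5 were lower in KO/+, with a median of -0.37 over the 6, and of 8 markers of striatal neurons 6 were higher. Their part in the values of Insig1 and Cyp46a1 was not tested. Among the further pathway genes Mbtps1 was higher (0.27, adjusted p = 0.017) and Cyp27a1 lower (-0.56, adjusted p = 0.021), against 3.51% and 3.40% of all entries, and with FPKM as deposited Mbtps1 did not pass. Under the cortex label 0 of 8 members were called, against 0.0885% of all entries, and 0 had an unadjusted p under 0.05, against 2202 of 15820 entries.

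Since 6 of the 12 libraries labelled KO/+ had a low Htt level and the rest did not, the KO line was also described by Htt level, without a test. In these 6 libraries Hmgcs1 ranged from 22.2 over 24.0 to 26.1 rescaled FPKM, against 24.4 over 26.8 to 34.3 in the other 18 KO-line libraries, and all 6 lay below the median of the others. Sqle ranged from 6.02 over 6.70 to 7.83 against 6.63 over 7.99 to 8.87, with all 6 again below the median of the others. Idi1 ranged from 3.73 over 4.04 to 4.48 against 3.63 over 4.68 to 5.46, also with 6 of 6. Insig1 ranged from 11.4 over 12.7 to 14.7 against 13.0 over 14.7 to 17.0, with 5 of 6 below that median and 4 below all 18 others. The ratios of medians were 0.89 for Hmgcs1, 0.84 for Sqle, 0.86 for Idi1 and 0.87 for Insig1, and every one of these ranges overlapped.

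Cyp46a1 ranged from 56.2 over 62.0 to 73.4 against 45.5 over 55.2 to 68.1, and none of the 6 lay below the median of the others. The 6 libraries labelled KO/+ that kept the higher Htt level had a median Cyp46a1 of 61.7, close to that of the low-Htt libraries, while their medians of Hmgcs1 (27.5), Sqle (8.16) and Idi1 (4.68) were close to those of all 18. The other members had ratios of 0.98 (Fdft1), 1.08 (Dhcr7) and 0.98 (Srebf2). With FPKM as deposited, Sqle kept a ratio under 1 at 0.77, while Cyp46a1 and Dhcr7 turned to 0.99 and 0.90. The summed oligodendrocyte markers ranged from 784 over 893 to 997 in the low-Htt libraries and from 854 over 1064 to 1286 in the others. Of the 6 astrocyte markers, Gfap had medians of 23.5 and 32.5 (ratio 0.72), with all 6 low-Htt libraries below the median of the others. The other astrocyte markers had ratios of 0.83 (Gja1), 0.96 (Aldoc), 0.99 (Aldh1l1), 1.02 (Slc1a2) and 1.04 (Slc1a3). Summed, the astrocyte markers had medians of 718 and 727, and the markers of striatal neurons 1679 and 1459. The part of these markers in the members' levels was not tested.

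**Figure D4:**
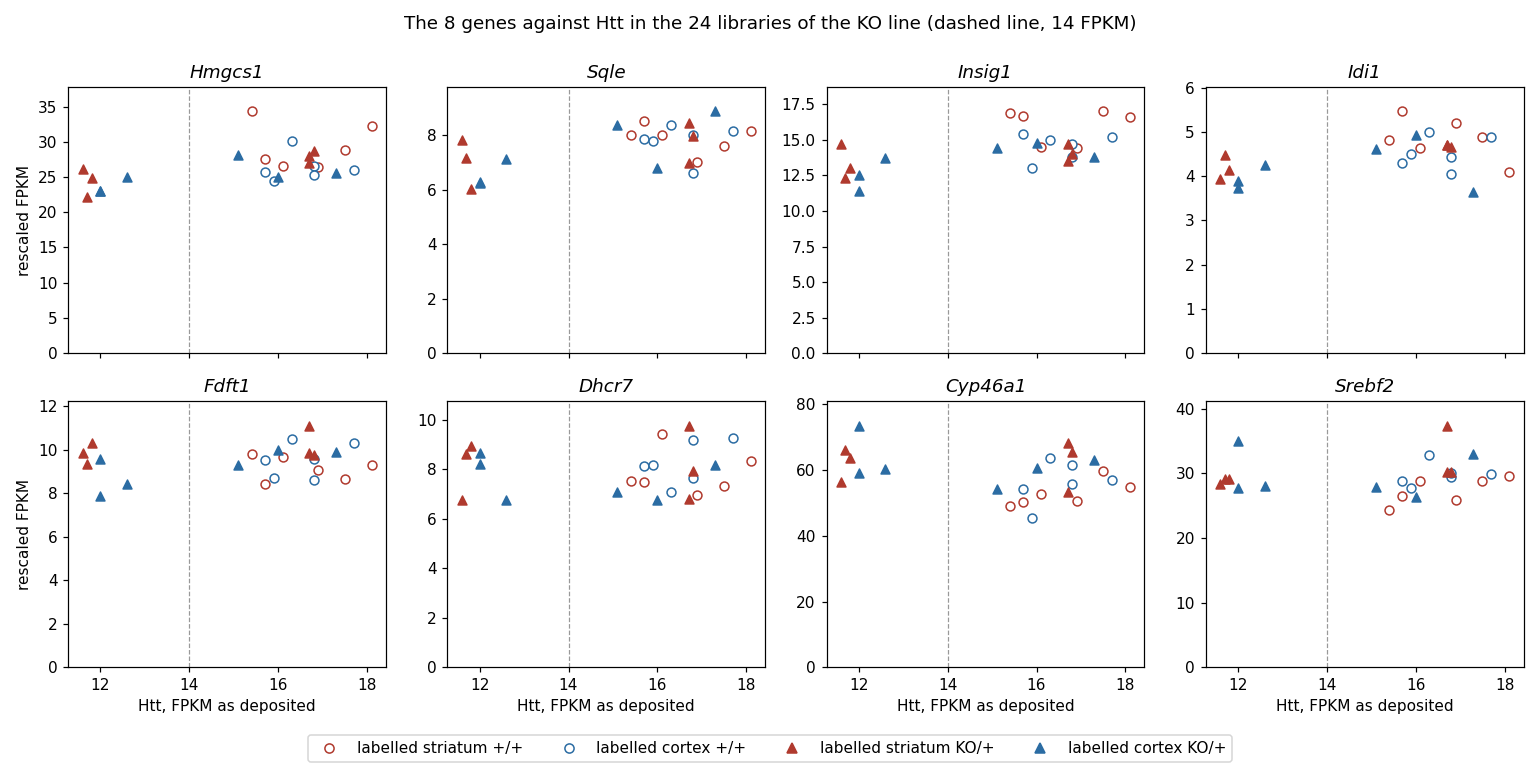
Rescaled FPKM of the 8 members (vertical axes) against deposited Htt FPKM (horizontal axes) in the 24 KO-line libraries, with triangles for libraries labelled KO/+, open circles for +/+, red for the striatum and blue for the cortex label, and a dashed line at 14. The 6 low-Htt libraries, all labelled KO/+, stand left of the line, and their Hmgcs1, Sqle and Idi1 lie below the median of the other 18.

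The labelled tissue was compared over all 60 libraries. In that fit limma called 0 of 8 members and 0% of all 16076 entries, with 397 entries and 0 members at an unadjusted p under 0.05. The log2 differences of the members lay between -0.05 for Dhcr7 and 0.04 for Idi1, and that of Srebf2 was 0.02 with a 95% interval of -0.13 to 0.17. The effect of KO/+ or of Δ12/Δ12 differed between the labelled tissues for 0 members and 0% of all entries, with 1788 and 452 entries but 0 members at an unadjusted p under 0.05.

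Members were also compared with each other across the libraries of one class, as log2 levels, in 28 pairs per class and 56 in all. Both Pearson's r and Spearman's rho passed a two-sided permutation test with 100000 resamples, with Benjamini-Hochberg adjustment over the 56, for 6 of 28 pairs in striatum-like libraries and 3 of 28 in cortex-like ones, each of them positive. The closest pair in striatum-like libraries was Hmgcs1 and Insig1 (n = 30, r = 0.78, permutation adjusted p = 5.6e-04, rho = 0.72, permutation adjusted p = 2.8e-04). Leaving out the 2 libraries farthest from the median of Hmgcs1 gave r = 0.73, and the 24 KO-line libraries alone gave 0.80. These tests shuffle libraries freely within a class, although a class mixes genotypes and tissue labels, and the striatum-like one also lines and Htt levels. The 24 KO-line libraries include the 6 with low Htt, and the part of such groups in the pairs was not tested. The labels also do not show which libraries share a mouse. Sqle correlated with Insig1 (r = 0.63, rho = 0.61, permutation adjusted p = 0.0043 and 0.0069) and with Hmgcs1 (r = 0.60, rho = 0.64, permutation adjusted p = 0.0060 and 0.0034), with r = 0.57 and 0.63 without 2 libraries.

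Insig1 and Idi1 correlated less closely (r = 0.54, rho = 0.55, permutation adjusted p = 0.023 and 0.014), as did Fdft1 and Srebf2 (r = 0.48, rho = 0.51, permutation adjusted p = 0.046 and 0.020). Cyp46a1 and Srebf2 passed in both classes, with r = 0.47 and rho = 0.54 in striatum-like libraries (permutation adjusted p = 0.048 and 0.014) and r = 0.69 and rho = 0.74 in cortex-like ones (permutation adjusted p = 0.0014 and 2.8e-04). Without 2 libraries these were 0.36 and 0.70, so the relation in striatum-like libraries was weaker then. In cortex-like libraries, which are all of the Δ12 line, Hmgcs1 and Idi1 had r = 0.59 and rho = 0.56 (permutation adjusted p = 0.0082 and 0.014, 0.62 without 2). Hmgcs1 and Sqle had r = 0.49 and rho = 0.54 there (permutation adjusted p = 0.046 and 0.014), which fell to 0.31 without 2 libraries and so rested in part on those.

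A glial transcript went with the same members. Across the 30 striatum-like libraries Gfap, the filament gene of astrocytes, had r = 0.71 with Insig1, 0.61 with Hmgcs1, 0.55 with Sqle and -0.65 with Cyp46a1. Slc1a2, another of the astrocyte markers, had the opposite signs, with -0.31, -0.19, -0.14 and 0.65 in the same order. These values describe libraries that share their composition and depth, and their part in the pairs was not tested.

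**Figure D5:**
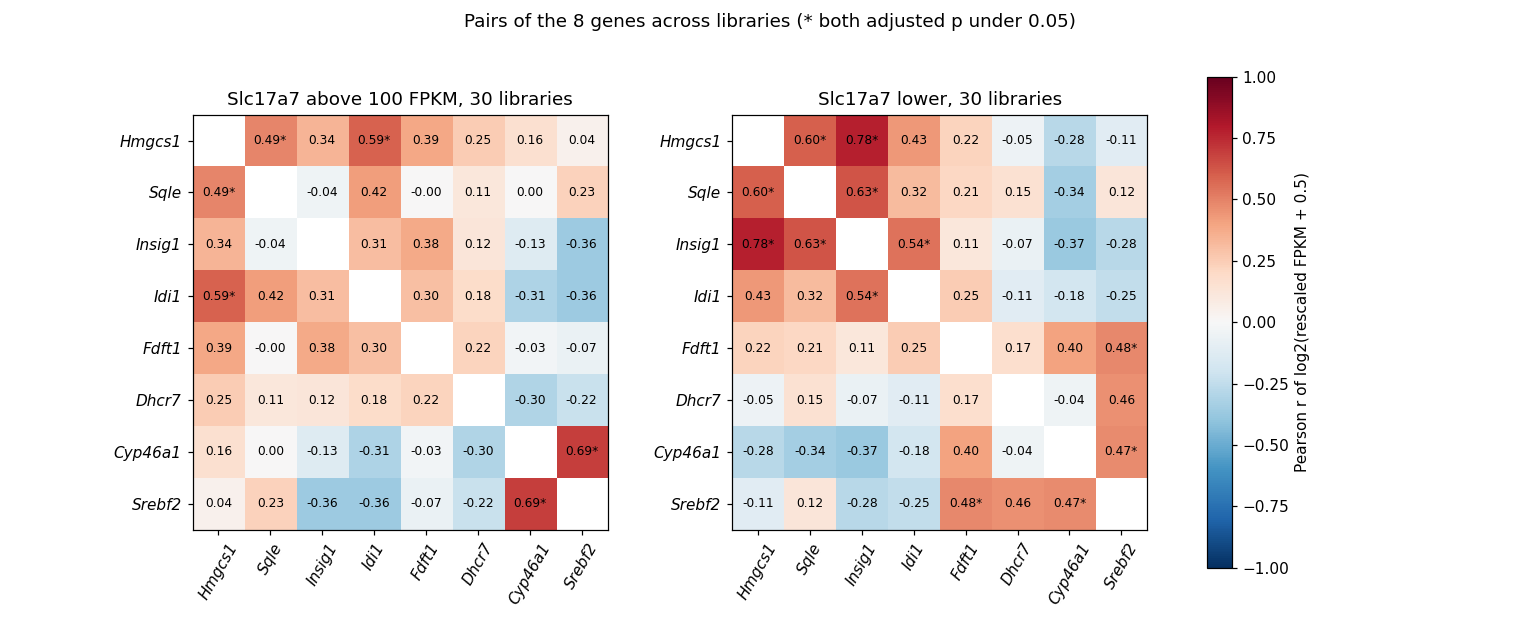
Pearson's r of log2 levels for the 28 pairs of members, in cortex-like and striatum-like libraries (30 each), as colour and number, with an asterisk where both measures passed. Hmgcs1 and Insig1 (0.78) in striatum-like and Cyp46a1 and Srebf2 (0.69) in cortex-like libraries are the closest.

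By Pearson's r of log2 levels over 30 libraries, among entries with a mean of at least 5 rescaled FPKM (8428 in striatum-like and 8439 in cortex-like libraries), the 3 genes most like each member were listed. For Cyp46a1 in striatum-like libraries they were Atp2b2 (0.93), Cyfip2 (0.92) and Hpca (0.91), and in cortex-like ones Map6 (0.88), Ndrg4 (0.87) and Camk2b (0.84). For Srebf2 they were Ttyh3 (0.87), Prex1 (0.87) and Rap1gap (0.86) in striatum-like libraries. For Insig1 they were Nkx6-2 (0.82), a transcription factor gene of oligodendrocytes, Pacsin2 (0.80) and Nudt4 (0.80). The list of Hmgcs1 there held Insig1 (0.78) in the middle, and that of Fdft1 in cortex-like libraries was led by Rdh11 (0.86) and Elp3 (0.85). Each list was picked as the most alike of all these entries, so these values are a description.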

How the data were processed

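RNA-Seq was measured in 60 libraries of total RNA depleted of ribosomal RNA. The authors deposited 1 table of FPKM per library, normalized for transcript length and library size, with interval bounds and GRCm38 coordinates, in the layout of Cufflinks. The submitters' processing notes name bcl2fastq 2.20, Trimmomatic 0.30, TopHat2 2.0.14, SAMtools 1.3 and HTSeq 0.6.1p1, and the tool that made the FPKM is not given in the sources used here. Counts per gene were not used here, so no count model was run.

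FPKM were divided by each library's median ratio to the geometric mean over 13235 entries (size factors 0.761 to 1.376, with medians of 1.15 in cortex-like and 0.891 in striatum-like libraries). From the 47597 entries, 23 that any library marked as not OK were dropped. Differences were tested on log2(rescaled FPKM + 0.5) with limma 3.58.1 in R 4.3.3, two-sided, for entries with a mean of at least 0.5 in the fit, with labelled sex (labelled tissue for the sex comparison, line, genotype and sex for the tissue comparison) as covariates. Benjamini-Hochberg adjustment ran over all entries tested, and an adjusted p under 0.05 was called. Fold changes on this scale understate those of low genes. Pairs were tested by permutation in numpy 2.4.6, with ranks from scipy 1.17.1, and the smallest p that 100000 resamples can give is 1e-05. The script was tested on simulated data. The bounds of entries with 1 transcript of at least 2000 bases gave an estimate of depth in fragments.

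Groups followed the labels, and the splits by Slc17a7 (deposited FPKM above 100) and Htt (under 14) are descriptions without a test. The labels do not tie each library to an animal, so p-values measure the spread between these samples. All 8 members are named, and of each further list up to 4 called genes with the smallest adjusted p per comparison, beside genes whose sign changed, and a few genes of this rule are not reported here. The members and lists were chosen with earlier results of these data known. Alternatives were other scalings, pseudocount, filter and covariates, a replicate block, the Slc17a7 class as a covariate and each library left out.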

Additional observations from a re-analysis of the deposited data

Results flagged for a closer look

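In the 80 sets of 6 libraries formed by the 8 members and 10 labelled groups, 6 sets held 1 library far from the other 5, by Dixon's criterion at its 95% limit, which chance passes in about 1 of 20 sets. The cortex Δ12/+ female 1 library stood high for both Cyp46a1, at 33.3 rescaled FPKM against 27.2 to 27.9 in the others, and Srebf2, at 17.8 against 12.4 to 13.6. Srebf2 was also high in striatum KO/+ male 1, at 37.4 against 28.3 to 30.3. Dhcr7 was at 16.6 in striatum Δ12/+ female 1 against 6.52 to 8.88, where the deposited interval reached 60.2% to either side of the value. Hmgcs1 was at 30.1 in cortex KO-line +/+ male 1 against 24.4 to 26.5. Sqle was at 6.63 in cortex KO-line +/+ female 3 against 7.78 to 8.36.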

How the results depend on the processing

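Leaving out 1 library in turn gave 0 to 4 members called for Δ12/Δ12 against +/+ under the striatum label. It was 2 without +/+ male 2, 1 without +/+ male 3 and 0 without any 1 of the 6 females. That count was also 2 with a pseudocount of 0.1, and 0 without the covariate, with the replicate block, with the Slc17a7 class as a covariate and with labelled males only, an alternative chosen after seeing the data. In the settings with 0, apart from the libraries left out, nearly all calls over all entries ended as well. The class covariate and the labelled males give the same estimates and are no separate checks. The line comparisons and the comparison of females and males kept 5 to 6 members called with each library left out, and KO/+ against +/+ under the striatum label 0 to 1 (1 without KO/+ male 1). FPKM as deposited called 8 members in the line comparison under the striatum label and 8 in that of females and males. The replicate numbers do not pair the libraries (mean correlation of deviations between -0.07 and 0.03), and the block moved no other count of members by over 1.5 times.

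Hmgcs1 turned from lower to higher under quantile normalization, to 0.40, 0.22 and 0.33 (log2) in the line comparisons under the striatum and cortex labels and in that of females and males, and in the last it ranged from -0.07 to 0.01 with each library left out. Dhcr7 in KO/+ under the striatum label was -0.05 with FPKM as deposited and ranged from -0.01 to 0.10 with each library left out. With FPKM as deposited the striatum-like to cortex-like ratios of medians were 0.70 for Hmgcs1, 0.70 for Sqle, 0.49 for Insig1, 0.53 for Idi1, 0.51 for Fdft1, 0.65 for Dhcr7, 1.51 for Cyp46a1 and 1.73 for Srebf2. The low-Htt ratios were 0.82 for Hmgcs1, 0.77 for Insig1, 0.79 for Idi1, 0.87 for Fdft1, 0.90 for Dhcr7, 0.99 for Cyp46a1 and 0.86 for Srebf2. The cause was not tested. With FPKM as deposited the entries called higher and lower moved from 5760 and 4991 to 4418 and 5702 (line, cortex label), from 6505 and 5778 to 4460 and 7352 (females and males), from 555 and 538 to 23 and 283 (KO/+, striatum label) and from 2278 and 2103 to 1291 and 3045 (Δ12/Δ12, striatum label), and quantile normalization gave 2204 and 1435 for the last. The deposited intervals were widest for Dhcr7 and Idi1, at 21.3% and 15.4% to either side in the median library, and the part of depth in this was not tested.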

Other observations

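The cortex Δ12-line +/+ female 1 library held the lowest or highest cortex-like value of 12 of 43 genes, the members and the further pathway genes, and no other library held more than 9. It had the highest Fdft1, 21.4 rescaled FPKM with 17.1 next, and also the highest Lbr at 14.6 with 5.00 next, Hsd17b7 at 11.5 with 4.24 next and Ebp at 13.7 with 7.34 next, all genes of sterol synthesis. In the same library Srebf2 was lowest, at 10.5, and Sqle lowest, at 6.41. Its estimated depth was 13700000 fragments, and its Htt was at 6.39 deposited FPKM, the lowest of all Δ12-line libraries.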
